A study of Mus musculus with 38 samples.

Results

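The genes described here are 38 liver-expressed genes of blood coagulation and of the complement system. They were selected by gene symbol, each symbol matched a single row, and together they were 38 of the 21954 genes in the deposited tables. All 38 also passed the low-count filter that kept 13786 genes for testing, so no member was lost. The livers came from female wild-type C57BL/6 mice and gave 38 RNA-seq libraries in 13 groups. Samples were taken at 0, 6, 14 and 22 h, and the library numbers below follow that order of hours. Mice fed ad libitum (AL) had 3, 2, 3 and 3 libraries, and calorie-restricted mice (CR) had 2, 3, 3 and 4. Fasted mice (F) had 3 at each hour but 0 h, where there was no fasted group. Both remaining groups were calorie-restricted mice at zeitgeber time 18 (ZT18), 3 fed (CR_fed) and 3 that missed a meal (CR_missed_meal). The labels give neither the degree of restriction nor the event from which the hours count, and they do not say that replicates were separate animals, so p-values measure the spread between these samples. Labelled ages run from 5 to 44 months, rise with the sample order and are shared by no groups, so if these labels are right an age effect and a group effect cannot be told apart.

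Coagulation is a cascade of proteases that circulate as inactive precursors, most of them made by hepatocytes. Its last protease, thrombin, turns fibrinogen into a fibrin clot, which plasmin later dissolves. Several of these proteins need vitamin K to become carboxylated in the liver. Complement is a second plasma cascade, which marks microbes and damaged cells through C3 and ends in a pore, the membrane attack complex, built from C5 to C9. The liver is the main source of both sets of plasma proteins.

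Total expected counts lay between 17131292 and 30152277 per library. Gene positions are given on GRCm38. Expression is given below as CPM (counts scaled to a common library total) on TMM-scaled library sizes, one value per library in the order of the replicate numbers. Fold changes are log2 values ± the standard error of the model, and a gene is called changed when the edgeR quasi-likelihood test gave an adjusted p below 0.05 over all 13786 genes. Hepatocyte markers, of which 9 of 10 were in the table, summed to between 79384 and 173020 CPM in every library. The 6 platelet markers summed to between 5.87 and 20.0 CPM, low in all libraries, and 1 of the 6, Itgb3, was called higher in F_14h than in AL_14h, while the other 5 were not called. In bulk tissue, fewer cells of a type and less RNA per cell cannot be told apart. A few libraries stood apart from their labels. The clock genes of AL_0h 2 and AL_22h 2 deviated and matched another hour better than their own. By mean correlation over all genes, AL_0h 3 was nearer, by a margin of over 0.005, to CR_0h, and CR_6h 3, CR_14h 3 and CR_22h 3 were nearer to AL of the same hour than to their own group. Results that rest on these libraries are given with and without them. Leaving out CR libraries that resemble AL widens contrasts of CR with AL by construction and can narrow the spread within CR groups. The adjusted p-values of such fits are therefore a description and not added support.

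Levels of different genes were compared on the deposited signal, which is a TPM rescaled by the authors and therefore accounts for transcript length. Many of the 38 genes were among the most abundant transcripts of the liver, with 7 among the top 100 of 21954 genes, and 20 among the top 500. The fibrinogen gamma chain gene Fgg had the highest mean signal at 2567, followed by C3 at 2460.3, Fga at 2423, Vtn at 1906 and Kng1 at 1898. At the low end were the complement gene C6 at 7.94, protein S (Pros1) at 24.2, the lectin protease Masp1 at 25.1 and factor XI (F11) at 26.4. In the plot of signal levels, all 3 fibrinogen chains lie near the top, while the proteases F11, F7 and F9 had mean signals of 26.4, 79.3 and 109. Those of F12, F10 and F2 were 339.6, 359 and 1336. The 38 genes together made up between 1.54% and 3.58% of the summed signal of a library, with a median of 2.24%. A ranking by CPM per kilobase gave nearly the same order, with a Spearman rho of 0.99 over the 38 genes.

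**Figure D1:**
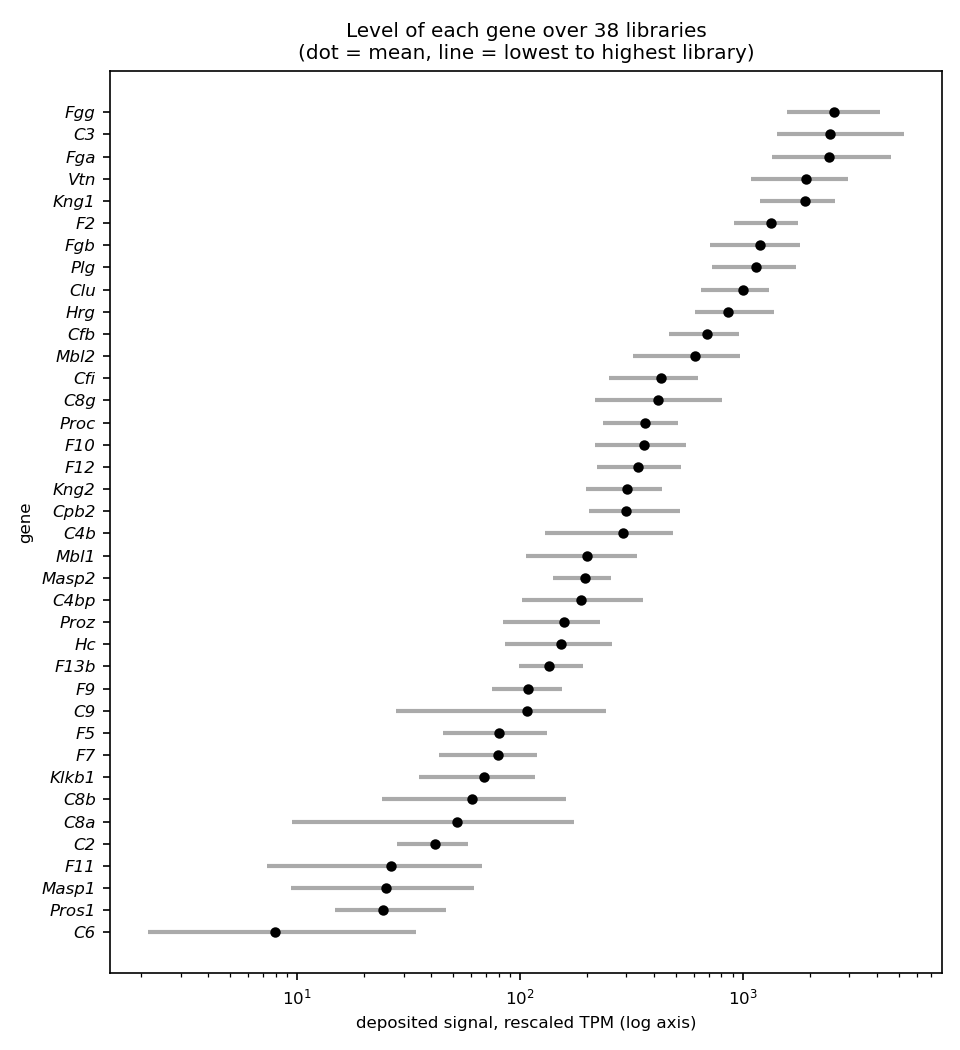
Mean deposited signal (rescaled TPM, log axis) of each of the 38 genes over 38 libraries, with a line from the lowest to the highest library. Fgg, C3 and Fga lie highest, at 2567, 2460.3 and 2423, C6 lies lowest at 7.94, and C8a, C9, C6 and F11 have the widest lines.

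The comparisons asked how fasting, calorie restriction and a missed meal bear on these genes at each hour. In fasted against AL livers at 14 h, 14 of the 38 genes were called, 1 higher and 13 lower. Over all genes tested, 24.5% were called in that comparison, 11.8% higher and 12.7% lower. The median log2 fold change was -0.51 for the 38 genes and -0.04 for all genes. In fasted against AL livers at 22 h, 4 genes were called, 2 higher and 2 lower, where 11.5% of all genes were called, 6.06% higher and 5.4% lower. At 6 h no member was called by edgeR and 2 had an unadjusted p below 0.05, against 2.34% of all genes called. DESeq2 called none there either.

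Few of these genes were called between calorie-restricted and AL livers. At 0, 6 and 14 h edgeR and DESeq2 called no member, where edgeR called 0.479%, 0% and 0.0218% of all genes. The members with an unadjusted p below 0.05 numbered 0, 5 and 7 at these hours. At 22 h, 2 were called lower, against 4.88% of all genes (2.57% higher, 2.31% lower). A difference between diets at 6 h rests on only 2 AL libraries.

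The calorie-restricted livers were also set against the fasted ones. At 6 h, 6 genes were lower, where 6.8% of all genes were called, 3.39% higher and 3.41% lower. At 14 h, 7 were higher and 2 lower, with 17.1% of all genes called, 9.1% higher and 7.97% lower. At 22 h, 3 were higher and 1 lower, with 9.44% of all genes called, 5.13% higher and 4.32% lower. These comparisons share the F libraries with the comparisons of fasted and AL livers, so the sets of values are not independent. The missed meal against the fed state called 1 member lower, where 12.5% of all genes were called, 6.34% higher and 6.13% lower. Only in fasted against AL livers at 14 h (36.8% of the members) and in CR against F at 6 and 14 h (15.8% and 23.7%) was the share of members called above that of all genes by more than a few percentage points, and the difference in share was not tested.

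Within a diet, time was tested jointly over its hours. Among AL livers no member was called, with 6 below an unadjusted p of 0.05 and 0.276% of all genes called. Among CR livers Fga and Fgg were called, where 20.6% of all genes were, and among F livers Mbl2, where 2.86% were. Whether the diet effect differed over the hours was tested too. No member was called for the fasting effect over 6, 14 and 22 h (8 with an unadjusted p below 0.05, and 0.0653% of all genes called) or for the calorie restriction effect over 0, 6, 14 and 22 h (0 with an unadjusted p below 0.05, and 0.442% of all genes called). The effect of fasting at 22 h minus that of the missed meal called none as well, with 3 unadjusted and 0.885% of all genes called. DESeq2 also called none in these 3 tests, nor for time in AL livers. A call at 14 h and none at 6 h therefore does not show that the effect differed between them.

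**Figure D2:**
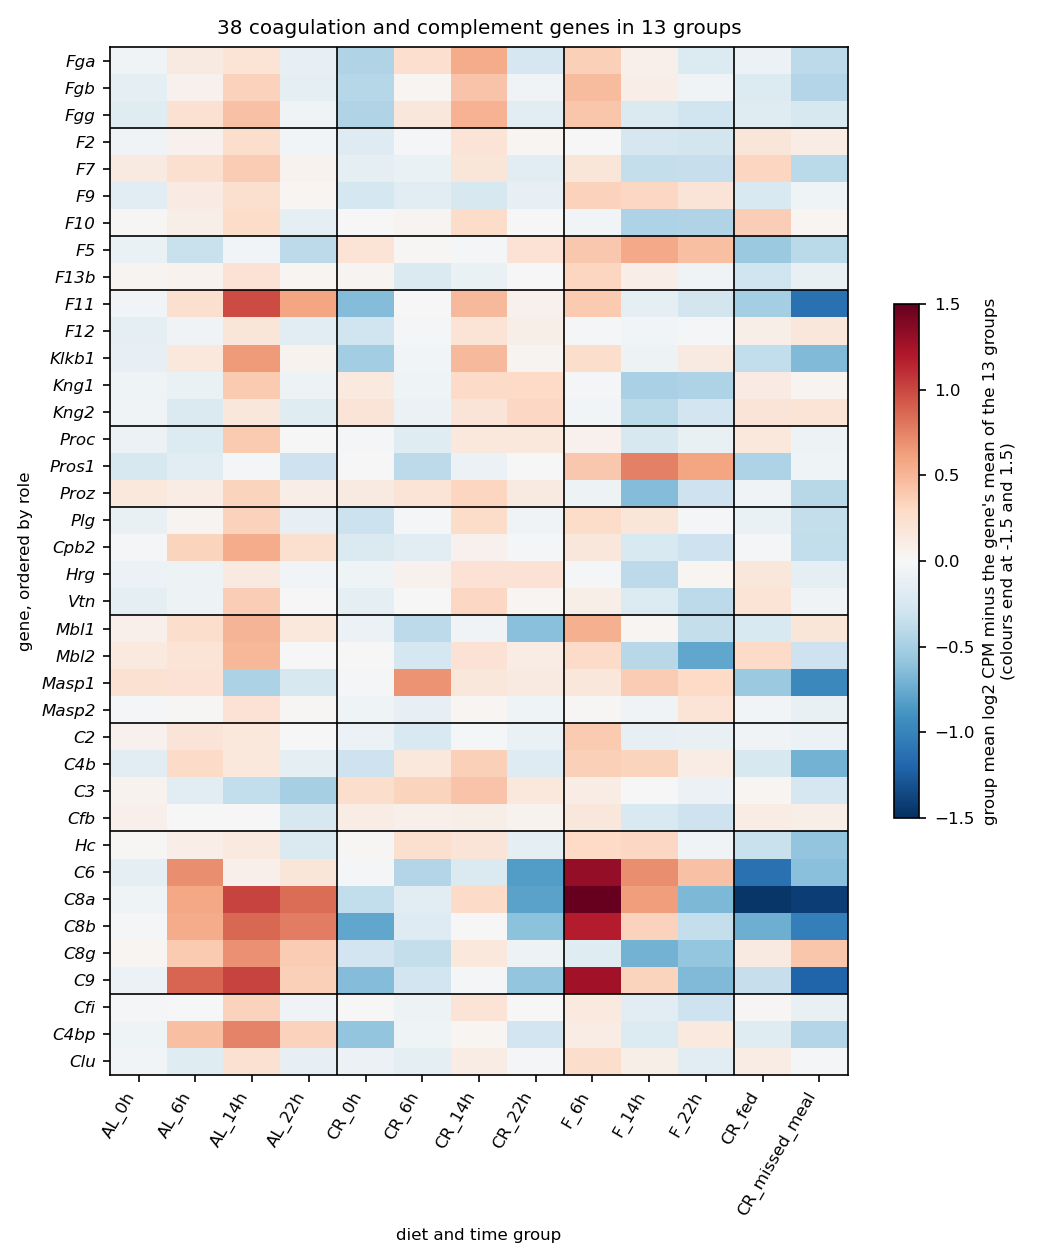
Group mean log2 CPM of the 38 genes (rows, ordered by role) in 13 groups (columns), relative to each gene's mean over the groups. The widest spreads are in the terminal complement rows, where C8a spans 3.06 log2 units from F_6h down to CR_fed, and F5 and Pros1 are highest in F_14h and F_22h, where Kng1, Proz and Mbl2 are low.

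Of the 38 genes, 21 were called in at least 1 of the 11 pairs of groups and 17 in none. That gave 40 calls of 418 gene-by-pair tests, 13 higher and 27 lower. In 39 of them the libraries of both groups did not overlap, and C6 was the exception. A call in groups this small favours such a gap, so the gap adds no support to it. The same counts are not given for all genes, so they do not set the members apart. The share of all genes called in each pair is given above. Leaving out single libraries tested how far each call rests on few samples. Of the 40 calls, 8 held in every such fit, namely Kng1, Proz, C8g, Cpb2 and Mbl2 in fasted against AL livers at 14 h, Kng1 and Proz in CR against F at 14 h, and Mbl2 in CR against F at 22 h. No fold change of the 40 changed its sign in any setting. The libraries without which a call was lost are named beside the gene.

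Fold changes in the fasted livers moved with transcript length across the whole transcriptome. In fasted against AL livers, the Spearman rho between fold change and the length of the longest transcript was 0.19 over 13783 genes at 6 h, 0.40 at 14 h and 0.39 at 22 h. Among the 38 genes it was 0.16, 0.51 and 0.59. The trend was then removed from each library, a step chosen after the data were seen. After it, 16.8% of all genes were called at 14 h and 7.59% at 22 h. Of the members' calls, 7 of the 14 at 14 h and 1 of the 4 at 22 h were left. Those left at 14 h were F11, Klkb1, Kng1, Pros1, Proz, C8g and C4bp, and at 22 h Pros1. The part of length in these results, and its source, was not tested further. In CR against F the rho over all genes was -0.33 at 14 h and -0.25 at 22 h, and among the members -0.34 and -0.47.

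**Figure D3:**
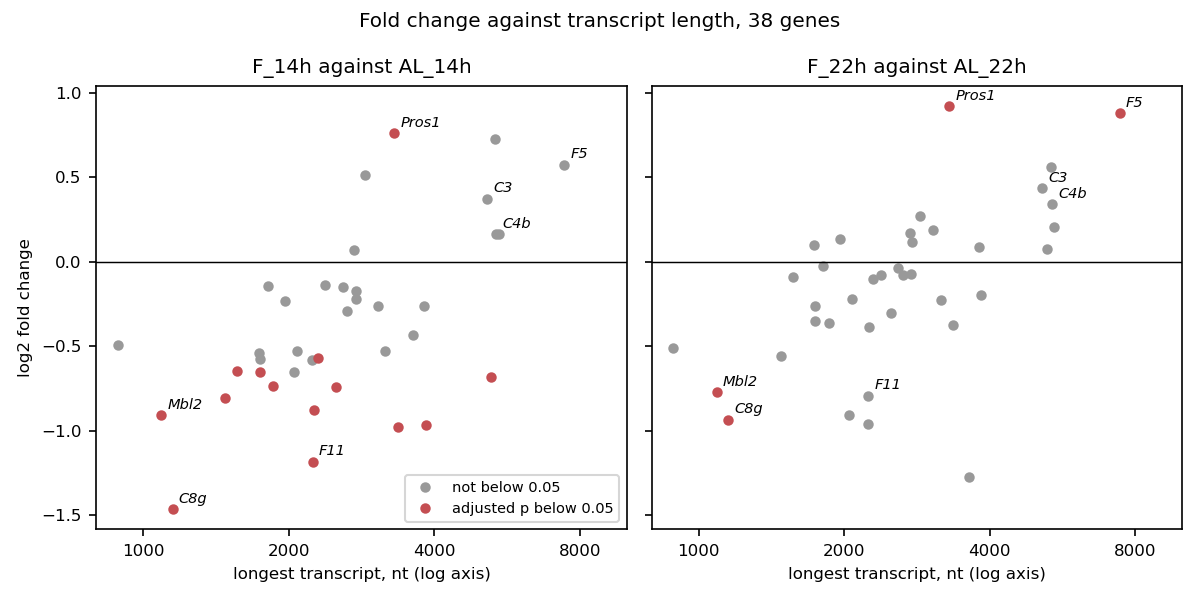
Log2 fold change of the 38 genes in fasted against AL livers at 14 h (left) and 22 h (right) against the length of the longest transcript in nucleotides (log axis). Short transcripts such as C8g and Mbl2 lie low and long ones such as F5 and C3 lie high, and Pros1 is the highest dot in both panels.

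Fibrinogen is the clot's building block, made of chains encoded by Fga, Fgb and Fgg, which are neighbours on chromosome 3, with gaps of 6513 bases between Fga and Fgb and 11026 between Fga and Fgg. Fgg was lower in fasted livers at 14 h, and Fga and Fgb were called in no pair of groups. AL livers had 2459.9, 2971 and 1877 CPM at 0 h, 3204 and 3118 at 6 h, 3380.2, 3822 and 3815 at 14 h, and 2097, 3586 and 2349 at 22 h for Fgg. Fasted livers had 3451, 3975 and 3448 CPM at 6 h, 2297, 2344 and 2367 at 14 h, and 2688, 2327 and 1680 at 22 h. At 14 h all fasted libraries lay below all AL libraries (-0.65 ± 0.21, adjusted p = 0.0211), a call lost without any one of AL_14h 3, F_14h 1, F_14h 2 or F_14h 3 and after removal of the length trend. Calorie-restricted livers had 1742 and 2231 CPM at 0 h, 2784, 3652 and 2766 at 6 h, 4438, 3439 and 3870.3 at 14 h, and 2534, 2420.1, 2788 and 1995 at 22 h. At 14 h they lay above the fasted livers (0.75 ± 0.21, adjusted p = 0.0128), which was lost without either CR_14h 1 or F_14h 1 and without the length trend. At ZT18 the values were 2431, 2216 and 2540.4 CPM in CR_fed and 2319.7, 2607 and 2007 CPM in CR_missed_meal, and these overlapped.

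Within calorie-restricted livers Fgg and Fga were the members that varied with the hour (adjusted p = 0.00799 and 0.0186 in edgeR's joint test). Both calls were lost without CR_0h 1, from a group of only 2 libraries. Fga held 1954 and 2788 CPM at 0 h, 3582, 4933 and 3126 at 6 h, 6268, 4443 and 3719.6 at 14 h, and 3206, 3070.4, 2715 and 1900.3 at 22 h. The highest library of all 38 was CR_14h 1, and the low CR values were CR_0h 1 and CR_22h 4. For Fgb, the same test gave an adjusted p of 0.0584. Over all libraries Fga ranged from 1808 to 6268 CPM (median 3143) and Fgb from 1829 to 4595 CPM (median 3059). The 3 chains moved together across libraries, with Pearson correlations of log2 CPM of 0.89 for Fga and Fgb, 0.83 for Fga and Fgg and 0.88 for Fgb and Fgg. On the length-adjusted signal the Fga to Fgg ratio had a median of 0.95 and the Fgb to Fgg ratio one of 0.46. Both ratios varied by group, with group medians from 0.74 in AL_14h to 1.06 in F_14h for Fga and from 0.40 in CR_missed_meal to 0.57 in F_14h for Fgb.

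Because these chains move together, the DNA before their starts is shown, taken from RefSeq promoter windows on GRCm38.p6 as the bases before the transcription start, 5′ to 3′ on the gene's strand. Capitals mark matches to the motifs searched, which were the HNF1 site GTTAAT, the C/EBP site TTGCNNAA, the STAT site TTCNNGGAA, the HNF4 site AGTCCA, CAAAGTCCA, the E-box CACGTG, the D-box forms TTATGTAA and TTATGCAA, and the CCAAT box, each on both strands. The Fga bases stop where a longer annotated transcript begins, and none of the searched motifs is in the Fgg window.
Fgg (chr3:83007474-83007723, plus strand): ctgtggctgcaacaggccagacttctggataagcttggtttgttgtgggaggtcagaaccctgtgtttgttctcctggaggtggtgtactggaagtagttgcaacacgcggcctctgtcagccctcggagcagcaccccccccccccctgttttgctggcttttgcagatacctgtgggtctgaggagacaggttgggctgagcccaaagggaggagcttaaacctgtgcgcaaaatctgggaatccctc
Fga (chr3:83025903-83026075, plus strand): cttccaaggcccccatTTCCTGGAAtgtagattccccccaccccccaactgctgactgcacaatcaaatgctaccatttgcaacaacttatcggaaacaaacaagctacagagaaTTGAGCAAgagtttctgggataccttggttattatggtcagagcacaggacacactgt
Fgb (chr3:83049864-83050113, minus strand): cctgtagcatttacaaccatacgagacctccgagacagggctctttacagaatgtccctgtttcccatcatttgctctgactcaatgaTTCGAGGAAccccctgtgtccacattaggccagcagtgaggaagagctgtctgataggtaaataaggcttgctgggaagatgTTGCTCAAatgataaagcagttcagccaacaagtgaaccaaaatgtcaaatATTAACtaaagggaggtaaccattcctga

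In the Fga window the capitals are a STAT match at -234, read on both strands, and a C/EBP match at -135, and a further HNF1 site starts at -43, past the bases shown. In the Fgb window they are STAT at -162, C/EBP at -80 and the HNF1 site at -29. Windows were given for 29 of the 38 genes. The HNF1 site was in 9 of these 29, in their 250 bases before the start, against 6.44% of 32817 windows of that length in the table. The C/EBP site was in 9, against 9.57%, and the STAT site in 5, against 4.06%. The CCAAT box was in 7, against 33.8%, and the HNF4 site in 3, against 11.5%. The E-box was in 0, against 6.02%, the first D-box form in 0, against 0.817%, CAAAGTCCA in 0, against 0.384%, and the second D-box form in C9 alone, against 0.695%, where it overlaps a C/EBP match. A match is a description of the letters and not a bound site.

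Prothrombin (F2) and factors VII, IX and X (F7, F9, F10) are the vitamin K-dependent proteases of the cascade. F7 and F10 were lower in fasted livers at 14 h, and F2 and F9 were not called there. F7 (chr8:13026034-13035809) starts the cascade together with tissue factor. AL livers had 138, 93.3 and 80.9 CPM at 0 h, 137 and 87.5 at 6 h, 111, 140.4 and 112 at 14 h, and 95.5, 96.9 and 96.8 at 22 h. Fasted livers had 104, 107 and 106 CPM at 6 h, 65.4, 79.7 and 73.1 at 14 h, and 74.5, 96.9 and 53.8 at 22 h. At 14 h the groups did not overlap (-0.73 ± 0.24, adjusted p = 0.0233), though the call was lost without any one of AL_14h 2, F_14h 1 or F_14h 3 and after removal of the length trend. Calorie-restricted livers had 72.4 and 97 CPM at 0 h, 92.6, 95.3 and 74 at 6 h, 112, 113 and 93.1 at 14 h, and 82.1, 98.4, 108 and 53.7 at 22 h.

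F7 was also the single member called after the missed meal. The groups at ZT18 had 118, 103 and 129 CPM in CR_fed and 89.2, 74.5 and 51.5 CPM in CR_missed_meal, with no overlap (-0.70 ± 0.24, adjusted p = 0.0486). That call was lost without any one of CR_fed 1, CR_fed 2, CR_fed 3, CR_missed_meal 2 or CR_missed_meal 3, and also without the length trend. In this comparison alone same-numbered samples deviated together in every pair (correlations 0.14 to 0.20), a pairing that comes from the data and not the labels. A fit to these 6 libraries with the replicate as a block was chosen after seeing the data and is only a description. It called 2 members lower, F7 (-0.74 ± 0.19, adjusted p = 0.0282) and the lectin protease Masp1 (-0.43 ± 0.13, adjusted p = 0.0477), where 24.5% of all genes were called. Red cell markers moved with the same contrast. Their 5 genes summed to 4670 to 14416 CPM after the missed meal and 947 to 2342 CPM in the fed livers, and their part in the result was not tested.

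F10, the protease that makes thrombin, lies directly beside F7 on chromosome 8, and the gap between the genes is 1498 bases. AL livers had 543, 407 and 402 CPM at 0 h, 575 and 379.7 at 6 h, 523, 514 and 566 at 14 h, and 362, 453 and 389.6 at 22 h. Fasted livers had 448, 421 and 416 CPM at 6 h, 322, 336 and 300.4 at 14 h, and 318, 381 and 276 at 22 h. At 14 h every fasted library was below every AL library (-0.74 ± 0.22, adjusted p = 0.0126), a call lost without either AL_14h 3 or F_14h 3 and, narrowly, after removal of the length trend (adjusted p = 0.0548). Calorie-restricted livers had 349 and 557 CPM at 0 h, 446, 559.9 and 370.5 at 6 h, 533, 693 and 413 at 14 h, and 484, 575, 415 and 318 at 22 h. At 14 h they were above the fasted ones (0.77 ± 0.22, adjusted p = 0.0132), lost without either CR_14h 2 or F_14h 3. The values at ZT18 were 609, 525 and 576 CPM in CR_fed and 449.6, 477 and 426 CPM in CR_missed_meal, the fed ones higher with no call (-0.34 ± 0.22, adjusted p = 0.334).

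F9, whose loss causes haemophilia B, went the other way from F10. Fasted livers had 274, 257 and 215 CPM at 6 h, 245, 218 and 258 at 14 h, and 216, 281 and 181 at 22 h, and AL livers had 204, 174 and 149 CPM at 0 h, 224 and 198 at 6 h, 247, 213 and 228 at 14 h, and 156, 244 and 203 at 22 h, with no call between them. Calorie-restricted livers had 152 and 172 CPM at 0 h, 181, 208 and 137 at 6 h, 178, 174 and 142 at 14 h, and 198, 173, 187 and 155 at 22 h. At 14 h they were below the fasted ones (-0.55 ± 0.18, adjusted p = 0.0384). This call was lost without any one of CR_14h 2, CR_14h 3, F_14h 1 or F_14h 3, and also without the libraries nearer to another diet (adjusted p = 0.111). In the ZT18 groups there were 161, 173 and 164 CPM in CR_fed and 216, 181 and 162 CPM in CR_missed_meal. F2 ranged from 1154 to 2286 CPM (median 1686) and was called in no pair, with -0.53 ± 0.23, adjusted p = 0.0826 in fasted against AL livers at 14 h.

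Factor V (F5) is the cofactor that speeds thrombin formation, and F13b encodes the carrier subunit of factor XIII, which crosslinks fibrin. F5 (chr1:164151838-164220277) was 1 of only 2 members called higher in fasted than in AL livers at any hour. AL livers had 416, 332 and 361 CPM at 0 h, 371 and 266 at 6 h, 423, 471 and 286 at 14 h, and 248, 350.3 and 313 at 22 h, and fasted livers 532, 573 and 467 CPM at 6 h, 545, 615 and 595 at 14 h, and 616, 676 and 381 at 22 h. At 22 h all F values exceeded the AL values (0.88 ± 0.25, adjusted p = 0.0202), lost without any one of AL_22h 1, AL_22h 3, F_22h 1 or F_22h 2 and after removal of the length trend. F5 has the longest transcript of the 38 genes, 7430 nt. The values at 6 h (0.72 ± 0.28, adjusted p = 0.208) and 14 h (0.57 ± 0.25, adjusted p = 0.0906) had the same sign without a call. Calorie-restricted livers had 443 and 472 CPM at 0 h, 469, 476 and 284 at 6 h, 537, 344 and 312 at 14 h, and 551, 344, 452 and 515 at 22 h, and overlapped the AL livers at 14 and 22 h. The ZT18 livers had 258, 321 and 236 CPM in CR_fed and 247, 391 and 275 CPM in CR_missed_meal.

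F13b was called in 1 pair of groups. Fasted livers had 300.2, 248 and 239 CPM at 6 h, 232, 228 and 209.8 at 14 h, and 211, 209 and 187 at 22 h. AL livers had 228, 228 and 189 CPM at 0 h, 228 and 204 at 6 h, 202, 249 and 286 at 14 h, and 182, 232 and 227 at 22 h, and calorie-restricted livers 194 and 236 CPM at 0 h, 175, 214 and 154 at 6 h, 228, 192 and 171 at 14 h, and 196, 199.6, 230.3 and 209 at 22 h. At 6 h the CR libraries lay below the F libraries (-0.54 ± 0.16, adjusted p = 0.0321), lost without any one of CR_6h 1, CR_6h 3, F_6h 1 or F_6h 2 and without the libraries nearer to another diet (adjusted p = 0.102). At ZT18 the values were 168, 171 and 169 CPM in CR_fed and 197, 199 and 184 CPM in CR_missed_meal.

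Of the 5 contact and intrinsic genes, 4 were lower in F_14h against AL_14h, where 12.7% of all genes were called lower. Factor XII (F12) starts this branch on charged surfaces, plasma prekallikrein (Klkb1) and the kininogens Kng1 and Kng2 are its partners, and factor XI (F11) carries it to factor IX. Kininogens are also the source of bradykinin, and the mouse has both genes next to each other on chromosome 16. Reads of these near-identical paralogs may be shared, so each value is uncertain. For Kng1 (chr16:23057865-23082078), AL livers had 2419.6, 2178 and 2228 CPM at 0 h, 2547 and 1944 at 6 h, 3292, 2820.4 and 3290.1 at 14 h, and 1933, 2527 and 2364 at 22 h. Fasted livers had 2491, 2346 and 2184 CPM at 6 h, 1843, 1666 and 1597 at 14 h, and 1525, 2105 and 1593 at 22 h. At 14 h the fasted livers were at 0.54 of the AL level, with no overlap (-0.88 ± 0.19, adjusted p = 0.00129), and the call held without any single library and without the length trend (-0.67 ± 0.19, adjusted p = 0.016). At 22 h the value was -0.39 ± 0.19, adjusted p = 0.183.

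Calorie-restricted livers had, for Kng1, 2172 and 3228 CPM at 0 h, 2306, 2692 and 1891 at 6 h, 3129.5, 2982 and 2656 at 14 h, and 3214, 3332, 2819.8 and 2412 at 22 h. They were above the fasted livers at 14 h (0.78 ± 0.19, adjusted p = 0.00491) and at 22 h (0.76 ± 0.18, adjusted p = 0.00661). The first call held without any single library and the second was lost without F_22h 1. The groups at ZT18 had 2626, 2384 and 2813 CPM in CR_fed and 2036, 2890.5 and 2532 CPM in CR_missed_meal, with overlap. Kng2 was expressed at a lower level. AL livers had 283, 264 and 327 CPM at 0 h, 277 and 240.0 at 6 h, 362, 299.8 and 355 at 14 h, and 227, 299 and 272 at 22 h. Fasted livers had 292, 308 and 273 CPM at 6 h, 253, 200.1 and 231 at 14 h, and 239, 273 and 229.9 at 22 h. Calorie-restricted livers had 303 and 389.8 CPM at 0 h, 289.7, 320.2 and 242 at 6 h, 381, 355 and 299 at 14 h, and 384, 437, 350.1 and 321 at 22 h. The fasted livers were below AL at 14 h (-0.57 ± 0.17, adjusted p = 0.0133), and the CR livers were above the fasted ones at 14 h (0.60 ± 0.17, adjusted p = 0.0138) and 22 h (0.59 ± 0.16, adjusted p = 0.0158). These calls were lost without any one of AL_14h 1, AL_14h 3 or F_14h 2, without either CR_14h 1 or F_14h 2, and without any one of CR_22h 2, F_22h 1 or F_22h 3, in that order. The length trend's removal ended the 14 h calls of Kng2. The values at ZT18 were 328, 306 and 399.5 CPM in CR_fed and 297, 389 and 359 CPM in CR_missed_meal. The Kng1 to Kng2 signal ratio had a median of 6.35 over libraries and, as group medians, ran from 5.46 in F_22h to 7.33 in AL_14h. The correlation of both genes over libraries was 0.90.

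F11 (chr8:45241174-45262031) spanned 2.10 log2 units over the group means, the widest range outside terminal complement. AL livers had 32, 43.6 and 23.3 CPM at 0 h, 46.3 and 32.7 at 6 h, 41.7, 94.3 and 70.1 at 14 h, and 50.4, 37.1 and 66.1 at 22 h, and fasted livers 46.8, 42.7 and 40.2 CPM at 6 h, 27.4, 38.9 and 24.5 at 14 h, and 27.2, 45.7 and 16 at 22 h. At 14 h the fasted livers were at 0.44 of the AL level (-1.18 ± 0.34, adjusted p = 0.0124), lost without any one of AL_14h 2, F_14h 1 or F_14h 3 and kept without the length trend. Calorie-restricted livers had 19.4 and 22.7 CPM at 0 h, 37.4, 26.9 and 35.1 at 6 h, 36, 37.7 and 73 at 14 h, and 31.1, 25.1, 53.9 and 33.1 at 22 h. In the ZT18 groups there were 22.7, 22.8 and 23.6 CPM in CR_fed and 20.8, 16.2 and 10.2 CPM in CR_missed_meal, and CR_missed_meal was the lowest group without a call against CR_fed (-0.55 ± 0.34, adjusted p = 0.326). Klkb1, which neighbours F11 at 7639 bases, ranged from 126 to 414 CPM (median 250.5). It was lower in F_14h, with 169, 306 and 210 CPM, than in AL_14h, with 355, 414 and 332 CPM (-0.68 ± 0.25, adjusted p = 0.0434). That call was lost without any one of AL_14h 1, AL_14h 2, AL_14h 3, F_14h 1 or F_14h 3. AL livers had 265, 275 and 138 CPM at 0 h, 317 and 213 at 6 h, and 195, 282 and 262 at 22 h. The F_14h values lay within the range of the AL livers at those hours. Klkb1 had its highest group mean in AL_14h. Its annotated body overlaps a read-through gene and Cyp4v3 on the same strand, so some reads cannot be assigned with certainty. F12 ranged from 274 to 664 CPM (median 425) and was called in no pair.

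Proteins C, S and Z are vitamin K-dependent plasma proteins that restrain clotting. Protein C (Proc) cuts activated factor V with protein S (Pros1) as its cofactor, and protein Z (Proz) helps the serpin Serpina10 to block factor Xa. These 3 genes did not move as a group, since in fasted against AL livers at 14 h Proc and Proz were lower and Pros1 higher. For Pros1 (chr16:62854307-62929346), AL livers had 55, 37.9 and 39.2 CPM at 0 h, 52.4 and 39.4 at 6 h, 39.7, 56.6 and 57.8 at 14 h, and 33, 50.2 and 42.4 at 22 h. Fasted livers had 65.4, 81.6 and 57.9 CPM at 6 h, 99.5, 83.7 and 78.2 at 14 h, and 103, 74.4 and 60.6 at 22 h. The fasted values were higher at 14 h (0.76 ± 0.21, adjusted p = 0.00943) and at 22 h (0.92 ± 0.21, adjusted p = 0.0054), without overlap. The first call was lost without either AL_14h 1 or F_14h 1 and the second without F_22h 1, and both held without the length trend. At 6 h the value was 0.57 ± 0.24, adjusted p = 0.239, with no call.

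Calorie-restricted livers had, for Pros1, 44.9 and 57.8 CPM at 0 h, 37.9, 41.6 and 37.8 at 6 h, 60.3, 48.5 and 38.5 at 14 h, and 46.3, 42.4, 58.9 and 60.2 at 22 h. They were below the fasted livers at 6 h (-0.81 ± 0.21, adjusted p = 0.0177), 14 h (-0.83 ± 0.21, adjusted p = 0.00703) and 22 h (-0.61 ± 0.20, adjusted p = 0.0453), the only member called in all 3 comparisons of CR with F. Calls were lost without any one of CR_6h 1, CR_6h 3 or F_6h 2 at 6 h, without CR_14h 3 at 14 h and without any one of CR_22h 1, CR_22h 2, F_22h 1 or F_22h 2 at 22 h, where the length trend's removal also ended it. The ZT18 livers had 43, 35.7 and 33.5 CPM in CR_fed and 47.9, 47.8 and 51.3 CPM in CR_missed_meal, higher after the missed meal without overlap, and edgeR did not call this (0.39 ± 0.21, adjusted p = 0.246), while the endothelial markers were at 303 to 339 CPM against 189 to 225 CPM in CR_fed. Endothelial cells also make protein S, and the 10 sinusoidal endothelial markers moved in the same direction at 14 h. They summed to 312 to 395 CPM in F_14h and 100 to 224 CPM in AL_14h, with 8 of 10 called higher, and to 237 to 351 CPM in CR_14h. At 22 h, where Pros1 was higher too, they summed to 238 to 377 CPM in F_22h and 223 to 314 CPM in AL_22h, with 1 of 10 called higher. CR_22h had 222 to 374 CPM, with 0 called against F_22h. At 6 h, where Pros1 was lower in CR than in F livers, the markers leaned the other way. They summed to 293 to 346 CPM in CR_6h and 257 to 320 CPM in F_6h, with 0 called. Of the 6 platelet markers only Itgb3 was called higher at 22 h, with means of 11.9 CPM in F_22h and 3.12 CPM in AL_22h, while Pf4 had 0.52 and 0.74 CPM. The part of endothelial cells in the Pros1 result was not tested.

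For Proz (chr8:13060914-13076026), AL livers had 447, 338 and 326 CPM at 0 h, 437 and 288 at 6 h, 401, 475 and 375 at 14 h, and 322, 359 and 372 at 22 h, and fasted livers 320.5, 308 and 307 CPM at 6 h, 179.9, 255 and 200.4 at 14 h, and 275, 333 and 203 at 22 h. The fasted livers at 14 h were at 0.51 of the AL level (-0.98 ± 0.23, adjusted p = 0.00236). That call held without any single library and without the length trend (-0.99 ± 0.22, adjusted p = 0.00239). Calorie-restricted livers had 308 and 420.2 CPM at 0 h, 388, 489.7 and 283 at 6 h, 476, 420.5 and 342 at 14 h, and 380.4, 379, 420.1 and 277 at 22 h, above the fasted ones at 14 h (0.96 ± 0.23, adjusted p = 0.00376), which also held without any single library. At ZT18 the values were 247, 383 and 338 CPM in CR_fed and 244, 285 and 212 CPM in CR_missed_meal. Proc was lower in fasted livers at 14 h (-0.65 ± 0.20, adjusted p = 0.0159), with 297, 309 and 286 CPM against 516, 456 and 423 CPM in AL livers. The call was lost without either AL_14h 1 or F_14h 3 and after removal of the length trend (adjusted p = 0.437). Elsewhere AL livers had 408, 286 and 309.5 CPM at 0 h, 406 and 231 at 6 h, and 360.0, 327 and 364 at 22 h, and fasted livers 368, 391 and 348 CPM at 6 h and 355, 361 and 269 at 22 h. Calorie-restricted livers had 274 and 441 CPM at 0 h, 293, 346 and 291 at 6 h, 362, 429 and 393 at 14 h, and 409, 451, 419.5 and 306 at 22 h. The groups at ZT18 had 433, 363 and 384 CPM in CR_fed and 337, 373 and 298 CPM in CR_missed_meal.

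**Figure D4:**
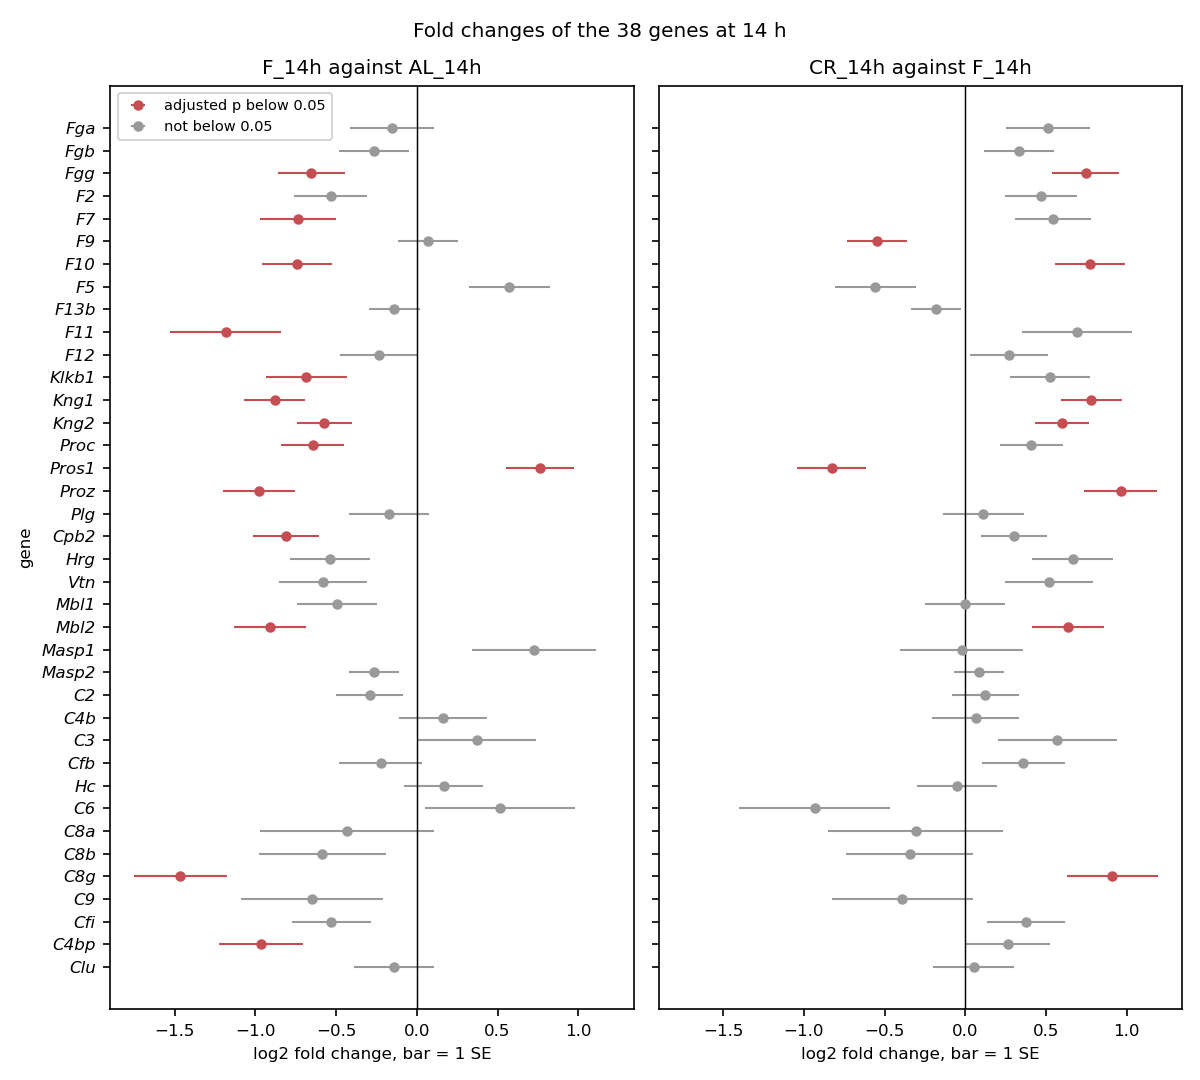
Log2 fold changes (dots) with 1 standard error (bars) of the 38 genes at 14 h, fasted against AL on the left and calorie-restricted against fasted on the right, which share the F_14h libraries. On the left 13 red dots lie below 0 and Pros1 lies above it, and on the right 7 red dots lie above 0, with Pros1 and F9 below it.

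Of the 4 fibrinolysis genes, 1 was called in a pair. Plasminogen (Plg) is the precursor of the clot-dissolving protease, and Cpb2 encodes a carboxypeptidase that protects fibrin from it. Histidine-rich glycoprotein (Hrg) and vitronectin (Vtn) bind proteins of this system. The called gene was Cpb2 (chr14:75242287-75283555), lower in fasted livers at 14 h. AL livers had 301, 311 and 194 CPM at 0 h, 317 and 362 at 6 h, 402, 312 and 494 at 14 h, and 269, 391 and 306 at 22 h, and fasted livers 310.3, 289 and 310.0 CPM at 6 h, 246, 228 and 216 at 14 h, and 186, 260.1 and 209 at 22 h. The fasted libraries at 14 h all lay below the AL ones (-0.81 ± 0.20, adjusted p = 0.00481). This held without any single library and was lost after removal of the length trend (adjusted p = 0.19). Calorie-restricted livers had 196 and 272 CPM at 0 h, 225, 231 and 265 at 6 h, 245, 272 and 332 at 14 h, and 260.1, 249, 334 and 232 at 22 h, and the ZT18 livers 277, 222 and 307 CPM in CR_fed and 243, 189 and 199 CPM in CR_missed_meal. Plg ranged from 1313 to 3130.5 CPM (median 2108), Hrg from 679.5 to 1521 CPM (median 929) and Vtn from 1186 to 3029.6 CPM (median 2104), and none of them was called in a pair. Without the libraries nearer to another diet, a choice made after seeing the data, Hrg was higher in CR_14h than in F_14h (0.83 ± 0.25, adjusted p = 0.0261).

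The lectin pathway begins with the mannose-binding lectins Mbl1 and Mbl2, which recognise microbial sugars, and their proteases Masp1 and Masp2. Mbl2 (chr19:30232942-30239687) was lower in fasted livers at both late hours. AL livers had 531, 402 and 376 CPM at 0 h, 588 and 343 at 6 h, 483, 522 and 652 at 14 h, and 353, 429.7 and 385 at 22 h, and fasted livers 522, 497 and 414 CPM at 6 h, 252, 331 and 300.3 at 14 h, and 223, 253 and 208 at 22 h. The fasted values were lower at 14 h (-0.91 ± 0.22, adjusted p = 0.004) and at 22 h (-0.77 ± 0.22, adjusted p = 0.0226), without overlap. The first held without any single library and the second was lost without any one of AL_22h 2, AL_22h 3, F_22h 1 or F_22h 3 and without the libraries with deviating clock genes (adjusted p = 0.0801). Both were lost after removal of the length trend (adjusted p = 0.589 and 0.564). Mbl2 has a transcript of 1089 nt, among the shortest here. It was also the single member that varied with the hour within fasted livers (adjusted p = 0.0125), which was lost without F_6h 1 and without the length trend.

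Calorie-restricted livers had 321 and 478 CPM at 0 h, 302, 322 and 348 at 6 h, 416, 546 and 409 at 14 h, and 424, 545, 389 and 349 at 22 h. They were above the fasted livers at 14 h (0.64 ± 0.22, adjusted p = 0.0467) and 22 h (0.90 ± 0.21, adjusted p = 0.0062). The first was lost without any one of the 6 libraries, without the libraries nearer to another diet (adjusted p = 0.0565) and without those with deviating clock genes (adjusted p = 0.0572). The second held without each single library, and both were lost without the length trend. The values at ZT18 were 579.8, 406 and 450.3 CPM in CR_fed and 231, 399 and 334 CPM in CR_missed_meal, with -0.58 ± 0.22, adjusted p = 0.086 for the missed meal and no call. Mbl1 was called lower in calorie-restricted livers in 2 pairs of groups. Calorie-restricted livers had 86 and 110.2 CPM at 0 h, 66.7, 59.7 and 123 at 6 h, 76.9, 82.9 and 156 at 14 h, and 55.6, 76.4, 75.1 and 62.7 at 22 h. AL livers had 114, 123 and 91.3 CPM at 0 h, 135 and 115 at 6 h, 139, 125 and 183 at 14 h, and 109, 126 and 113 at 22 h. Fasted livers had 143, 174 and 133 CPM at 6 h, 93.4, 118 and 105 at 14 h, and 77.1, 69.4 and 97.1 at 22 h. CR livers were lower than AL livers at 22 h (-0.78 ± 0.23, adjusted p = 0.0453) and lower than fasted livers at 6 h (-0.85 ± 0.25, adjusted p = 0.0331). The first was lost without any one of AL_22h 1, AL_22h 2, AL_22h 3, CR_22h 1, CR_22h 2 or CR_22h 4, and without the libraries with deviating clock genes (adjusted p = 0.127). The second was lost without any one of CR_6h 1, CR_6h 2, F_6h 1, F_6h 2 or F_6h 3.

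The highest Mbl1 values of CR_6h and CR_14h were in CR_6h 3 and CR_14h 3, both nearer to AL of the same hour. Without the libraries nearer to another diet, Mbl1 was lower in CR than in AL livers at 6 h (-0.98 ± 0.22, adjusted p = 0.0413), 14 h (-0.89 ± 0.21, adjusted p = 0.0165) and 22 h (-0.84 ± 0.18, adjusted p = 0.00284). Leaving out CR libraries that resemble AL libraries raises any such contrast by its construction. In the ZT18 groups there were 84.3, 69.8 and 115 CPM in CR_fed and 134, 104 and 114 CPM in CR_missed_meal. The Mbl2 to Mbl1 signal ratio had a median of 2.95, and as group medians it was 5.14 in CR_22h and 2.33 in F_22h. Masp1 ranged from 17.2 to 115 CPM (median 44.6) and Masp2 from 142 to 227 CPM (median 176), with no call in a pair.

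The core of complement is C3, cleaved by convertases built from C4 (C4b) and C2 or from factor B (Cfb). None of these 4 genes was called in any of the 11 pairs. C3 ranged from 5051 to 18516 CPM (median 8166), C4b from 450.4 to 1754 CPM (median 991), Cfb from 814 to 1731 CPM (median 1206) and C2 from 46.7 to 101 CPM (median 65). Calorie-restricted livers spread widely for C3, with 8427 and 11338 CPM at 0 h, 12069, 17309 and 5166 at 6 h, 18516, 12407 and 5645 at 14 h, and 13308, 10992, 6667 and 6939 at 22 h. At 6 and 14 h the low value was that of replicate 3, the library nearer to AL. Against AL livers at 14 h, with 5524, 7876 and 5645 CPM, the value was 0.94 ± 0.37, adjusted p = 0.386 in all libraries and 1.29 ± 0.32, adjusted p = 0.021 without the libraries nearer to another diet. At 22 h it was 0.71 ± 0.35, adjusted p = 0.24 in all libraries and 1.05 ± 0.32, adjusted p = 0.0335 without both kinds of doubtful library. Both fits that leave libraries out favour a difference between CR and AL by construction. C2 and Cfb lie 85 bases apart on chromosome 17 and share a read-through gene model, and C4b has a close paralog, so reads of these genes may have been split.

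Terminal complement held the widest swings over group means, in C8a, C9, C6 and C8b. The same genes also spread most within groups, with SDs of 0.72, 0.59, 0.61 and 0.51 log2 units, while Hc spanned only 0.91 over group means. The terminal complement genes encode C5 (Hc), C6, the chains of C8 (C8a, C8b, C8g) and C9, which assemble into the membrane attack complex. C8a and C8b lie in opposite directions on chromosome 4 with a gap of 11130 bases, and C8g lies on chromosome 2. C8a and C8b had a correlation of 0.95 over 38 libraries, the highest of all 703 pairs of members, where the median pair had 0.39. Within groups their correlation was 0.92, and F12 and Vtn had the highest, 0.93. These values describe libraries that share depth and diet. The bases before their starts are shown for that reason, with the same motifs in capitals as for fibrinogen.
C8a (chr4:104876399-104876648, minus strand): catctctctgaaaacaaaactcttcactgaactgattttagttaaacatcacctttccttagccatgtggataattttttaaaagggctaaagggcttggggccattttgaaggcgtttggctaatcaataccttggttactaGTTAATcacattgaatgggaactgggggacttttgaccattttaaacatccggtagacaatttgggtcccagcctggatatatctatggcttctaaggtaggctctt
C8b (chr4:104766067-104766316, plus strand): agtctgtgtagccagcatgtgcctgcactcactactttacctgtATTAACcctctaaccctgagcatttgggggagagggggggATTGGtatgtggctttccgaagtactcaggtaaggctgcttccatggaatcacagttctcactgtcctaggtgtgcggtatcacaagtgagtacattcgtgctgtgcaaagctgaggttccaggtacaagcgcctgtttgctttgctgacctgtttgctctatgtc

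Both windows hold an HNF1 site, at -107 in C8a and at -206 in C8b, and C8b has a CCAAT box at -166. The aligned windows shared 46% of their columns, which is near the 46.5% of Fgb and Fgg. For C8b (chr4:104766317-104804548), AL livers had 79.2, 106 and 52.6 CPM at 0 h, 147 and 87.2 at 6 h, 81.7, 232 and 146 at 14 h, and 123, 128 and 144 at 22 h. Calorie-restricted livers had 36.3 and 55.7 CPM at 0 h, 47.7, 55.4 and 117 at 6 h, 68.1, 58.6 and 114 at 14 h, and 42.9, 45.3, 74.7 and 43.6 at 22 h. At 22 h the CR libraries all lay below the AL ones, at 0.39 of their level (-1.35 ± 0.37, adjusted p = 0.0293). The call was lost without any one of AL_22h 1, AL_22h 2, AL_22h 3, CR_22h 1, CR_22h 2 or CR_22h 4, and without the libraries with deviating clock genes (adjusted p = 0.0611). It held without the libraries nearer to another diet (-1.59 ± 0.35, adjusted p = 0.00301), a choice that favours it by construction. Fasted livers had 192, 207 and 134 CPM at 6 h, 77.5, 148 and 81.3 at 14 h, and 34.9, 114 and 54.4 at 22 h. At 6 h the CR livers were below the fasted livers (-1.28 ± 0.40, adjusted p = 0.0468), a call lost without any one of CR_6h 1, CR_6h 2, F_6h 1, F_6h 2 or F_6h 3. The ZT18 livers had 37.8, 41.6 and 63.4 CPM in CR_fed and 38.6, 37 and 38.2 CPM in CR_missed_meal.

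C8a followed the same pattern with a wider spread and passed no pair test. AL livers had 113, 110.3 and 63.6 CPM at 0 h, 199 and 103 at 6 h, 118, 369 and 170.3 at 14 h, and 161, 173 and 183 at 22 h. Calorie-restricted livers had 63.5 and 87.7 CPM at 0 h, 44.9, 68.3 and 210.2 at 6 h, 141, 60.3 and 192 at 14 h, and 48.3, 37.2, 97.9 and 52.4 at 22 h. Fasted livers had 278, 405 and 224 CPM at 6 h, 96.7, 261 and 130.3 at 14 h, and 31.5, 128 and 54.3 at 22 h. At 22 h all CR libraries were below all AL libraries, and edgeR gave -1.55 ± 0.50, adjusted p = 0.0672. Without the libraries nearer to another diet it was -1.91 ± 0.48, adjusted p = 0.00855, and CR_6h against F_6h moved from -1.49 ± 0.55, adjusted p = 0.102 to -2.41 ± 0.57, adjusted p = 0.00837. Both shifts follow in part from which libraries were left out, so they do not make C8a a called member. At ZT18 the values were 23, 25.4 and 73 CPM in CR_fed and 31.1, 43.4 and 34.8 CPM in CR_missed_meal, the lowest group means of the series. The C8a to C8b signal ratio stayed between 0.37 and 1.27 over all libraries.

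C8g (chr2:25498651-25501719) did not follow its partner chains, with a correlation over libraries of 0.11 with C8a and 0.18 with C8b. AL livers had 307, 333 and 193 CPM at 0 h, 321 and 374 at 6 h, 522, 264 and 554 at 14 h, and 334, 375 and 324 at 22 h, and fasted livers 242, 199 and 259 CPM at 6 h, 158, 169.9 and 158 at 14 h, and 164, 145 and 231 at 22 h. It had the largest fall among the members in fasted livers at 14 h, to 0.36 of the AL level (-1.46 ± 0.29, adjusted p = 0.000547), which held without any single library and without the length trend (-0.79 ± 0.20, adjusted p = 0.00577). At 22 h it was lower as well (-0.94 ± 0.28, adjusted p = 0.0291), lost without any one of AL_22h 1, AL_22h 2, AL_22h 3, F_22h 1 or F_22h 2, without the libraries with deviating clock genes (adjusted p = 0.0759) and without the length trend. Calorie-restricted livers had 187 and 249.7 CPM at 0 h, 189.6, 161 and 289.7 at 6 h, 216, 284 and 413 at 14 h, and 203, 242, 336 and 237 at 22 h. They were above the fasted livers at 14 h (0.91 ± 0.28, adjusted p = 0.025), lost without any one of CR_14h 3, F_14h 1 or F_14h 3, without the length trend and without the libraries nearer to another diet (adjusted p = 0.106). The groups at ZT18 had 278, 221 and 401 CPM in CR_fed and 449, 319.6 and 301 CPM in CR_missed_meal. The C8a to C8g signal ratio ran from 0.03 in CR_fed to 0.35 in F_6h as group medians. C8g overlaps Fbxw5 on the opposite strand, and in libraries without strand information the reads of the overlap cannot be told apart.

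C9 (chr15:6445327-6498751) forms the ring of the pore. AL livers had 179, 163 and 51 CPM at 0 h, 253 and 194 at 6 h, 195, 269.7 and 279 at 14 h, and 115, 248 and 132 at 22 h. Fasted livers had 281, 326 and 268 CPM at 6 h, 121, 212 and 139.8 at 14 h, and 40.6, 148 and 75.1 at 22 h. Calorie-restricted livers had 63.6 and 93.7 CPM at 0 h, 65.8, 117 and 128 at 6 h, 113, 113 and 135 at 14 h, and 77, 69.2, 144 and 53.9 at 22 h. At 6 h the CR libraries were at 0.36 of the fasted level with no overlap (-1.49 ± 0.45, adjusted p = 0.0375), and the call was lost without any one of the 6 libraries. The values at ZT18 were 85.2, 66.1 and 153 CPM in CR_fed and 44.6, 90.7 and 36 CPM in CR_missed_meal. C6 was the least expressed member. Fasted livers had 28.3, 63.3 and 19.1 CPM at 6 h, 14.9, 28.7 and 21.8 at 14 h, and 15.1, 22.1 and 16.4 at 22 h. AL livers had 14.7, 12.5 and 8.68 CPM at 0 h, 23.5 and 18.8 at 6 h, 9.43, 25.7 and 10.6 at 14 h, and 14.4, 17 and 13 at 22 h. Calorie-restricted livers had 13.6 and 11.8 CPM at 0 h, 4.78, 8.98 and 20.2 at 6 h, 9.29, 9.49 and 15.5 at 14 h, and 5.15, 4.61, 13.3 and 8.44 at 22 h. CR_6h was called below F_6h (-1.70 ± 0.47, adjusted p = 0.0244), although CR_6h 3 lay above F_6h 3. F_6h 2 held the highest value of all libraries, and the call was lost without any one of CR_6h 1, CR_6h 2 or F_6h 2. Without the libraries nearer to another diet, a choice that favours this contrast by construction, C6 and C9 were lower in CR than in AL livers at 22 h (-1.30 ± 0.41, adjusted p = 0.0328 and -1.31 ± 0.38, adjusted p = 0.0213). Neither was called there in all libraries. In the ZT18 groups there were 4.17, 4.38 and 11.2 CPM in CR_fed and 6.07, 9.83 and 9.63 CPM in CR_missed_meal. Hc ranged from 301 to 909 CPM (median 490.2) and was called nowhere.

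**Figure D5:**
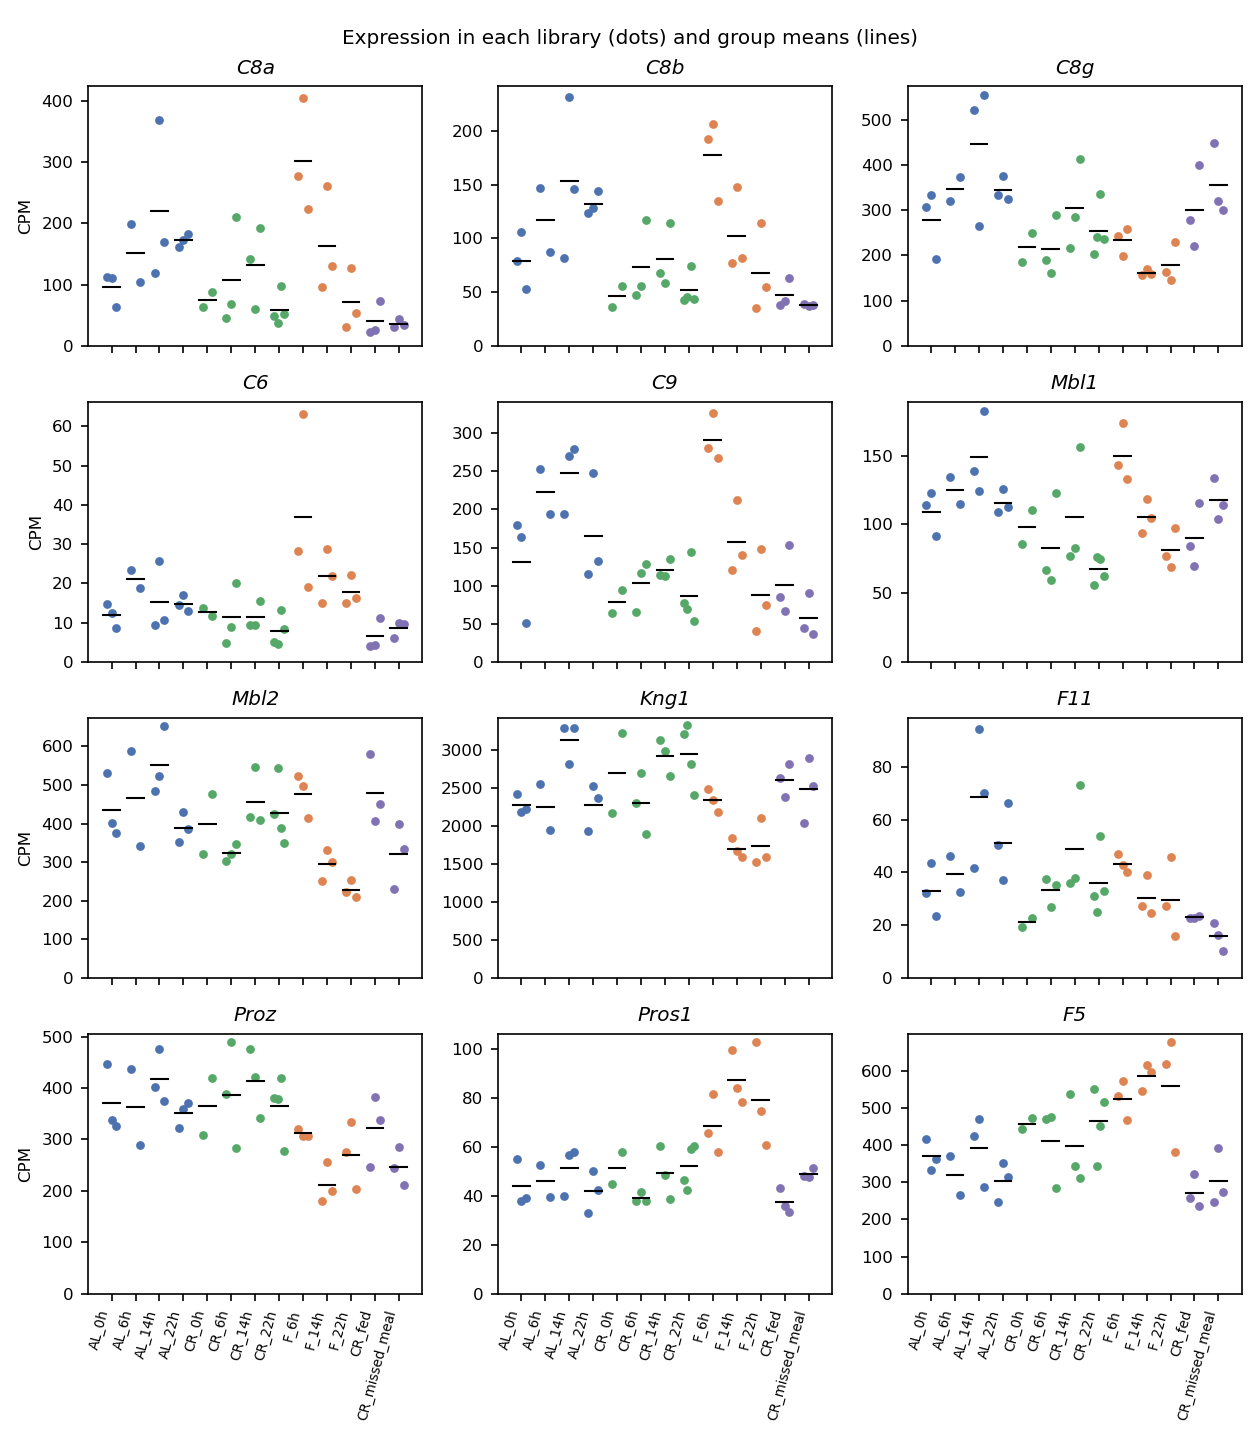
CPM of 12 genes in every library (dots) with group means (lines), AL in blue, calorie-restricted in green, fasted in orange and the ZT18 groups in purple. C8a and C8b share their pattern over groups while C8g does not, Mbl2, Kng1 and Proz are low in the late fasted livers, and Pros1 and F5 are high there.

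Complement regulators limit the cascade. Factor I (Cfi) cuts C3b and C4b, C4b-binding protein (C4bp) is its cofactor, and clusterin (Clu) keeps the pore from inserting. C4bp (chr1:130634773-130661632) was lower in fasted livers at 14 h. AL livers had 425, 378 and 206 CPM at 0 h, 488 and 431 at 6 h, 489, 524 and 701 at 14 h, and 357, 467 and 462 at 22 h, and fasted livers 372, 385 and 336 CPM at 6 h, 282, 301 and 294 at 14 h, and 323, 442 and 356 at 22 h. At 14 h the fasted livers were at 0.51 of the AL level (-0.97 ± 0.26, adjusted p = 0.00765), lost without AL_14h 3 and kept without the length trend. Calorie-restricted livers had 191 and 259 CPM at 0 h, 259.7, 304 and 417 at 6 h, 306, 286 and 460.2 at 14 h, and 262, 283, 422 and 184 at 22 h. Against AL livers at 22 h they gave -0.57 ± 0.24, adjusted p = 0.156 in all libraries and -0.82 ± 0.19, adjusted p = 0.00421 without those nearer to another diet, and at 14 h -0.70 ± 0.26, adjusted p = 0.361 and -0.94 ± 0.22, adjusted p = 0.0143. The second value at each hour is favoured by the choice of libraries. The ZT18 livers had 267, 269.9 and 362 CPM in CR_fed and 299, 231 and 221 CPM in CR_missed_meal. Cfi ranged from 333 to 839 CPM (median 572) and Clu from 718 to 1461 CPM (median 1152), with no call.

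Among all 703 pairs of members, F2 and Vtn had a correlation over libraries of 0.92, Fgb and Plg 0.90 and Kng1 and Kng2 0.90. The lowest was that of F5 and C8g, -0.72. Of the genes within 100000 bases of each other there were 12 pairs. F7, F10 and Proz sit in a row on chromosome 8 with correlations of 0.73 (F7 and F10), 0.72 (F7 and Proz) and 0.68 (F10 and Proz), and all were lower in F_14h. F11 and Klkb1 had 0.76. The neighbours C2 and Cfb had only 0.39, and Kng2 and Hrg 0.53. These are descriptions over libraries that share diets and depth.

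Other genes of both pathways were counted from lists. Of 25 further coagulation genes 23 were tested. In fasted against AL livers at 14 h, 11.8% of all genes were called higher and 12.7% lower. Of these 23 genes, 3 were higher and 6 lower there, and the median log2 fold change of the 23 was -0.33. Lower were the protein Z partner Serpina10 (-1.38 ± 0.19, adjusted p = 1.43e-05) and the vitamin K reductase Vkorc1 (-1.21 ± 0.21, adjusted p = 0.000218), which recycles the cofactor of F7, F9, F10 and proteins C, S and Z. Its paralog Vkorc1l1 was higher (0.56 ± 0.16, adjusted p = 0.0106). Heparin cofactor Serpind1 (-0.92 ± 0.23, adjusted p = 0.00412) and the inhibitor Tfpi2 (-1.32 ± 0.33, adjusted p = 0.00459) were lower too. So were Gas6 (-1.51 ± 0.38, adjusted p = 0.00485) and Thpo (-0.91 ± 0.27, adjusted p = 0.0127). Factor VIII (F8, 1.81 ± 0.40, adjusted p = 0.00176) and thrombomodulin (Thbd, 2.14 ± 0.50, adjusted p = 0.0026), both made by endothelial cells, were higher beside the endothelial markers given above. Serpina10 was also lower in F_22h against AL_22h (-0.99 ± 0.19, adjusted p = 0.00123) and in CR_22h against AL_22h (-0.68 ± 0.17, adjusted p = 0.0213). A2m and Serpina5 did not pass the low-count filter, with highest libraries of 6.30 and 0.36 CPM.

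All 23 further complement genes were tested. In CR_22h against AL_22h 5 were lower and 0 higher, where 2.31% of all genes were called lower and 2.57% higher. The 5 were C1qa, C1qb, C1qc, C3ar1 and Cfp, which in liver belong to Kupffer cells rather than hepatocytes. C3ar1 had -1.71 ± 0.40, adjusted p = 0.0124, and Cfp had -1.09 ± 0.31, adjusted p = 0.041. The 10 Kupffer cell markers, which include the C1q genes, summed to 160 to 371 CPM in CR_22h and 424 to 576 CPM in AL_22h, with 5 of 10 called lower. Their part in this was not tested. In fasted against AL livers at 14 h 1 was higher, the decay accelerator Cd55 (1.32 ± 0.35, adjusted p = 0.00721), and 3 were lower, the carboxypeptidase subunit Cpn1 (-0.58 ± 0.19, adjusted p = 0.0261) and the membrane regulators Cd59a (-0.58 ± 0.19, adjusted p = 0.0284) and Cr1l. Of all genes, 11.8% were called higher and 12.7% lower there. After the missed meal 1 of the 23 was lower and 1 higher, where 6.13% of all genes were called lower and 6.34% higher. The higher was the collectin Colec10 (1.23 ± 0.40, adjusted p = 0.0383). The lower was Cfd, the factor D gene that fat tissue expresses, and its call rests on 1 fed library with 20.9 CPM, since the mean of the 3 was 7.02 CPM. The mean after the missed meal was 0.018 CPM, so no fold is given. Of 14 transcription factors of hepatocyte and acute phase genes, Foxa2 was lower in fasted livers at 14 h (-0.82 ± 0.23, adjusted p = 0.0113) and 22 h (-1.10 ± 0.24, adjusted p = 0.00319) and after the missed meal (-0.84 ± 0.23, adjusted p = 0.0164). Called higher after the missed meal were 3 others, Cebpd (1.52 ± 0.47, adjusted p = 0.0294), Foxa3 (1.04 ± 0.30, adjusted p = 0.0225) and Cebpb, the last with mean levels of 316 CPM against 112 CPM in CR_fed. In F_14h against AL_14h, Hnf4a (0.90 ± 0.28, adjusted p = 0.0203) and Cebpd (1.55 ± 0.48, adjusted p = 0.0182) were higher. Cebpa (-0.84 ± 0.24, adjusted p = 0.0214) and Foxa3 (-1.02 ± 0.30, adjusted p = 0.0262) were lower in F_22h, so Foxa3 had opposite signs in these comparisons. Of 13 acute phase genes outside the 38, 2 were lower and 0 higher in F_14h against AL_14h, and 1 was lower and 0 higher in F_22h against AL_22h. Of all genes, 12.7% were called lower and 11.8% higher at 14 h, and 5.4% lower and 6.06% higher at 22 h.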

How the data were processed

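Liver RNA of 38 libraries was read as 150 bp pairs from non-directional, poly(A)-selected libraries, and per the labels' protocols reads were aligned with Bowtie, at most 2 mismatches, to protein-coding genes of GRCm38. The authors deposited expected counts from RSEM 1.2.3, and a second table of TPM rescaled by EBSeq, used here as a signal for levels per length. Per the labels, that rescaling was for a potential batch effect, and the labels name no batch.

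Expected counts were rounded and fitted with edgeR 4.0.16 (R 4.3.3) in a single model of 13 groups over all 38 libraries, with filterByExpr, TMM scaling and quasi-likelihood F tests. Benjamini-Hochberg adjustment covered all 13786 genes kept. The alternatives used DESeq2 1.42.0 and limma 3.58.1. The standard error is the log2 fold change divided by the root of F. The common dispersion was 0.0785, and the scripts were tested on simulated data. Coordinates and transcript lengths came from GENCODE vM21. Promoter bases came from RefSeq on GRCm38.p6, for 29 of 38 members. Replicates of a group differed by more than sampling noise, and none was merged. Same-numbered replicates deviated together in every pair (correlations 0.14 to 0.20 over 3 pairs) only for CR_missed_meal against CR_fed, a pairing that comes from the data and not the labels.

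The members and gene lists were chosen with earlier results of these data known. Members called in a pair are given in every library, except Klkb1, the called member with the largest adjusted p. It is given by its range, as the uncalled members are, and in its F_14h and AL libraries. Pathway genes outside the 38 were named by the smallest adjusted p in each list or after their values were seen. The second way covers Vkorc1l1, Gas6, Thpo and genes on which a marker result turned, among others. Expected counts cover counting error only through the model, and overlapping genes on opposite strands cannot be told apart.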

Additional observations from a re-analysis of the deposited data

Results flagged for a closer look

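In CR_22h, the single group of 4 libraries, 38 sets of values were examined for a library far from the other three, and chance picks out about 1 in 20 such sets. Plasminogen (Plg) was 1460 CPM in CR_22h 4 against 2203, 2118 and 2155 CPM in the others. Histidine-rich glycoprotein (Hrg) was 772 CPM in the same library against 1214, 1182 and 1151 CPM. C8b was 74.7 CPM in CR_22h 3, a library nearer to AL_22h than to its own group, against 42.9, 43.6 and 45.3 CPM.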

How the results depend on the processing

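Groups of 2 to 4 libraries limit the precision, and most calls rest on few samples: 8 of the 40 called fold changes kept their call whichever single library was left out, and none of the 40 reversed. Leaving out single libraries moved the number of members called between 8 (without F_14h 3) and 12 (without AL_14h 2) in F_14h against AL_14h, 0 (without F_22h 1) and 5 (without F_22h 2) in F_22h against AL_22h, 0 (without AL_22h 1, among others) and 6 (without CR_22h 3) in CR_22h against AL_22h, 0 (without CR_6h 1) and 4 (without CR_6h 3) in CR_6h against F_6h, 5 and 8 in CR_14h against F_14h, 1 and 5 in CR_22h against F_22h, 0 and 1 for the missed meal, 0 (without CR_0h 1) and 4 for time in CR, and 0 (without F_6h 1) and 4 for time in F. It stayed at 0 in the other comparisons. The share of all genes called in these fits is not given, so these counts do not set the members apart from other genes.

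The following settings moved counts by over 1.5 times, and the cause was not tested. The share of all genes called in the same setting and comparison is given in brackets. Removing the length trend left 7 members called in F_14h against AL_14h (16.8%), 1 in F_22h against AL_22h (7.59%), 0 for the missed meal (13.9%) and 5 for time in CR (22.2%). Without the libraries with deviating clock genes there were 2 in F_22h against AL_22h (9.67%), 0 in CR_22h against AL_22h (2.78%), 0 for the missed meal (12.9%) and 2 for time in F (3.54%). Without the libraries nearer to another diet there were 1, 1, 3 and 7 in CR against AL, in order of the hours (2.96%, 0.562%, 4.31% and 14.8%). In that setting there were 7 in CR_22h against F_22h (14.3%) and 6 for time in F (5.15%). Without both kinds the counts were 1 at 6 h (0.741%), 3 at 14 h (4.79%) and 6 at 22 h (12.1%) in CR against AL, 4 for time in CR (26.6%) and 6 for time in F (6.12%). A fit to the compared libraries alone gave 1 in CR_22h against AL_22h (0.661%), 3 in CR_6h against F_6h (7.12%), 5 in CR_14h against F_14h (11%) and 0 in CR_22h against F_22h (2.07%). DESeq2 gave 4 for time in CR (24.8%) and 5 for time in F (5.55%). Without the low-count filter the missed meal called 0 (8.6%). On log2(signal + 1) without a minimum, limma called 1 in CR_22h against AL_22h (1.82%), 0 for the missed meal (6.24%) and 1 for time in CR (10.4%). With a minimum mean of 1 it called 3 for time in F (3.57%), as with a pseudocount of 0.1 (3.59%).

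With the replicate number as a block, CR_22h against AL_22h called 0 (3.71% of all genes), time in CR 4 (21.2%) and time in F 5 (4%). In the compared libraries alone, the block gave 2 for the missed meal, where 24.5% of all genes were called. The labels give no pairing, and only for the missed meal did same-numbered samples deviate together in every pair. The settings that leave out libraries by their resemblance or clock genes, the length trend and that last blocked fit were chosen after seeing the data.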
